A study of Drosophila melanogaster with 17 samples.

Results

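The 7 genes that encode the attacins, the diptericins and drosocin of Drosophila melanogaster were followed in glial TRAP-seq libraries after a traumatic brain injury (TBI). They were chosen by their FlyBase symbols, AttA, AttB, AttC, AttD, DptA, DptB and Dro, and are 7 of the 13479 genes in the expression table. TRAP-seq (translating ribosome affinity purification) sequences the mRNA that is bound to a tagged ribosomal protein. Here repo-GAL4, a driver for nearly all glia, expressed UAS-GFP::RpL10A in every fly of every group, and ribosomes were pulled down from pooled heads of young adult flies, so that each library averaged many animals. Injured flies had received 5 strikes of a solenoid to the head without anesthesia (dCHI, a closed head injury), and sham flies came from the same parents and were handled in parallel without a strike. Flies were kept in a 12:12 light:dark cycle and collected at lights-on (ZT0) 1, 3 or 7 days after the injury. Each treatment had 3 libraries per day, except for TBI on day 7, which had 2. In the sample labels these days appear as 3, 6 and 10, and the sex as female, whereas the methods give males.

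The antimicrobial peptides studied here are secreted effectors of the humoral immune response of the fly. In that response, peptidoglycan of Gram-negative type is sensed by receptors of the PGRP family, the signal passes through the adaptor imd and the kinases Tak1 and IKKbeta, and the NF-kappaB factor Relish (Rel) enters the nucleus and turns the peptide genes on. Attacins and diptericins are glycine-rich peptides and drosocin is proline-rich. The fat body makes most of the circulating peptide during infection, and glia and other cells of the head can express the same genes. DptA is known for its part in defense against Providencia rettgeri, and DptB has been linked to long-term memory as well as to immunity. AttD is the divergent attacin, and its product lacks the signal peptide that the other attacins carry.

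In the release 6 annotation of the genome (BDGP6), 6 of the 7 genes lie on chromosome arm 2R, in 3 places, and all 7 are protein-coding genes on the plus strand. Dro (2R, 14745961 to 14746714), AttA (14747362 to 14748215) and AttB (14749223 to 14750165) stand side by side, with 647 bases between Dro and AttA and 1007 between AttA and AttB. DptA (2R, 18865765 to 18866260) is followed by DptB (18867391 to 18867895) after 1130 bases. AttC (2R, 13393705 to 13394667) stands alone, and AttD (17625268 to 17626086) is on 3R. AttA and AttB are close copies of each other, so how the reads were divided between them is uncertain, and their sum is given as well. The ends of AttC and DptB overlap genes on the minus strand, CG4744 by 53 bases and CG43109 by 48 bases, and since no use of strand is stated, reads from the overlaps cannot be told apart.

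Values are TPM (transcript abundance scaled for transcript length and library size to a fixed total), which allow levels of different genes to be compared within a library but keep no sequencing depth. The spread between libraries is thus the only measure of error, and nothing in the labels says what separates the replicates beyond their number, so that p-values measure the spread between these libraries. The sums of the listed genes ran from 832800 to 854953 TPM, and no pair of libraries was identical. The glial marker repo was present in every library at 31.1 to 92.7 TPM and the astrocyte marker alrm at 243 to 591 TPM. Other cell types were present too, with the neuronal elav at 53.4 to 133 TPM, the photoreceptor opsin ninaE at 22565 to 52558 TPM and the yolk protein gene Yp1, which is expressed in fat body, at 3531 to 15984 TPM. In such mixed RNA, fewer cells of a type and less RNA per cell cannot be told apart. A set of 13 digestive enzyme genes of the midgut summed to between 442 and 827 TPM in TBI on day 1, to 648 TPM in sham replicate 2 of day 3 and to 748 TPM in TBI replicate 1 of day 7, against 33.4 to 65.3 TPM in the other 12 libraries.

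Dro was the most abundant of the 7 transcripts in 17 of 17 libraries and made up 44.4% to 70.4% of their summed TPM, with a median of 56.8%. Its level ran from 12.6 to 1251 TPM, which placed it between rank 117 and rank 4751 among all genes of a library. DptA (2.28 to 389 TPM) and AttC (5.40 to 180 TPM) shared the next places: DptA was second in 10 libraries and AttC in 7. DptB (1.37 to 84.9 TPM) and AttB (1.93 to 43.6 TPM) likewise exchanged places 4 and 5 between libraries. AttA reached 11.2 TPM at most and AttD 5.46 TPM, and AttD was the lowest of the 7 in 12 libraries. Dro thus kept its place, while the order within the other pairs varied between libraries. On day 1 AttC exceeded DptA in every sham library, and DptA exceeded AttC in every TBI library. On the later days both orders of DptA and AttC occurred in sham and in TBI. Whether the order within either pair differed between groups was not tested.

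The summed level of the 7 genes spanned 26.2 to 1900 TPM over the 17 libraries. On day 1 it was 81.8, 26.2 and 201 TPM in sham replicates 1, 2 and 3 and 456, 1900 and 1555 TPM in the TBI replicates. On day 3 it was 245, 28.1 and 95.4 TPM in sham and 584, 394 and 719 TPM in TBI. On day 7 it was 453, 45.4 and 1232 TPM in sham and 77.7 and 274 TPM in TBI. The TBI libraries thus lay above the sham libraries on days 1 and 3, whereas on day 7 the highest library was a sham library, replicate 3, which was the third highest of all 17.

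**Figure D1:**
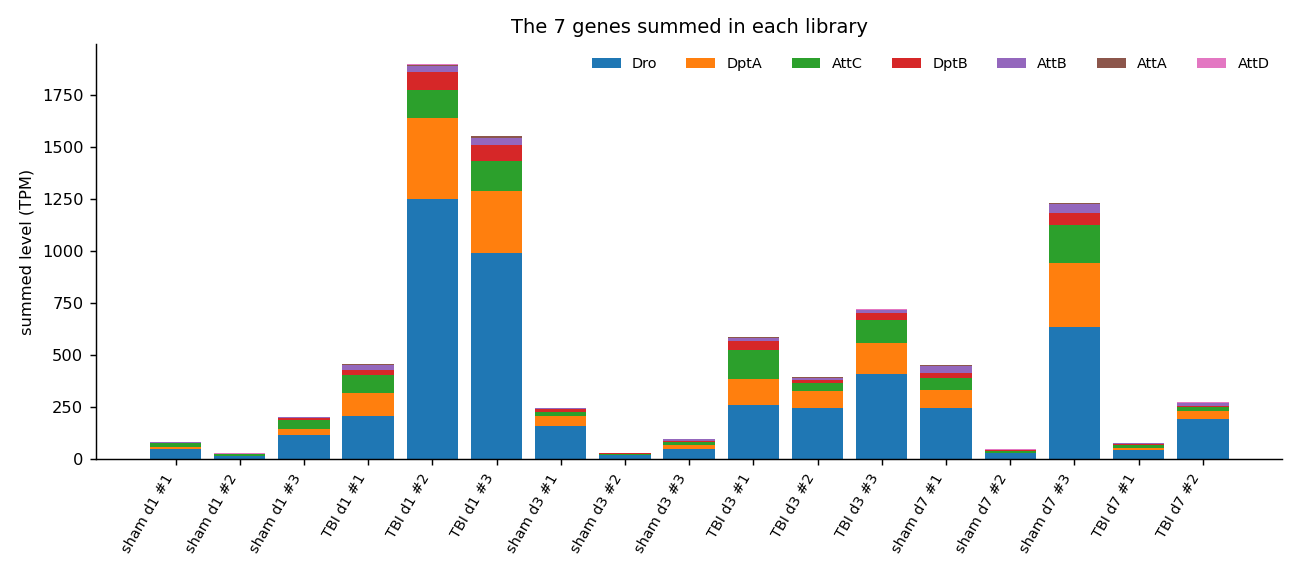
Summed TPM of the 7 genes in each of the 17 libraries, stacked by gene (d1, d3 and d7 are days after injury and # is the replicate number). The day 1 TBI libraries sum to 456 to 1900 TPM against 26.2 to 201 TPM in sham, and sham replicate 3 of day 7 reaches 1232 TPM.

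The first question was whether the genes differed between injured and sham flies 1 day after the injury. All 7 had every TBI library above every sham library, as 10.1% of the 12085 genes tested did. AttA, AttB and DptB passed the test, which required an adjusted p no higher than 0.1 and a log2 change of 0.6 or more, and 2.19% of all genes were called higher in this way. Among the attacins, AttB was at 2.76, 1.93 and 3.20 TPM in sham and at 20.7, 28.5 and 33.2 TPM in TBI. The groups were far apart, with the replicates of each group close together. AttB rose by 2.96 on the log2(TPM + 1) scale, on which all changes are given (SE 0.21, limma adjusted p = 0.0281). AttA, its neighbor, was listed at 0 in sham replicate 1 and was at 0.44 and 0.96 TPM in the other sham libraries, against 4.62, 6.93 and 11.2 TPM in TBI. It rose by 2.53 (SE 0.18, limma adjusted p = 0.0278), a value that the added 1 TPM makes smaller than the ratio of the TPM values. At such sham levels the added 1 TPM also keeps the spread, and with it the SE, small. With AttA and AttB summed into 1 gene, the groups were at 2.37 to 4.15 TPM and 25.3 to 44.5 TPM and the change was 3.13 (limma adjusted p = 0.0225).

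AttC was at 17.7, 6.46 and 45.6 TPM in sham and at 88.3, 135 and 145 TPM in TBI. The sham libraries differed more from each other than the TBI libraries did, and the groups did not overlap. The difference of 2.70 (SE 0.54) did not pass the test (limma adjusted p = 0.135). AttD was at 0.27, 0.40 and 0.32 TPM in sham and at 1.38, 5.46 and 2.33 TPM in TBI, a difference of 1.49 (SE 0.31, limma adjusted p = 0.142) at levels near the lower end of the table.

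Among the diptericins, DptB was at 2.78, 1.37 and 9.31 TPM in sham and at 24.8, 84.9 and 74.9 TPM in TBI. It rose by 3.61 (SE 0.56, limma adjusted p = 0.0947), close to the threshold of 0.1. DptA showed the largest difference of the 7 genes, with 8.71, 3.07 and 28.4 TPM in sham and 111, 389 and 298 TPM in TBI. The TBI libraries 2 and 3 stood well above TBI library 1, and sham replicate 2 was the lowest. The difference of 4.48 (SE 0.73) fell just short of the threshold (limma adjusted p = 0.103), which it passed without the replicate block (0.0513) and with a pseudocount of 0.1 or 0.5 in place of 1 (0.0968 and 0.0993). Over 12 alternative settings DptA passed in 6 and missed in 6, with a limma adjusted p of up to 0.173. Dro was at 49.6, 12.6 and 113 TPM in sham and at 206, 1251 and 989 TPM in TBI. Its TBI libraries followed the same order as those of DptA, with replicate 1 low. The difference was 3.89 (SE 0.94, limma adjusted p = 0.175).

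All 7 genes were higher in TBI on day 1 at an unadjusted p under 0.05, against 9.85% of all genes. The calls moved with single libraries, the replicate block, the pseudocount and the genes tested. Without replicate 3 (both libraries of that number) none of the 7 passed and without replicate 2 only DptA did, with 68 and 10 genes called higher in all. With genes under a mean of 1 TPM left out, AttC, DptA and Dro passed as well (limma adjusted p = 0.0272, 0.0149 and 0.0451). More genes were called in that setting, 466 of 8743 higher. AttA and AttD reach that mean through the TBI libraries alone, so their calls in this setting carry no weight.

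**Figure D2:**
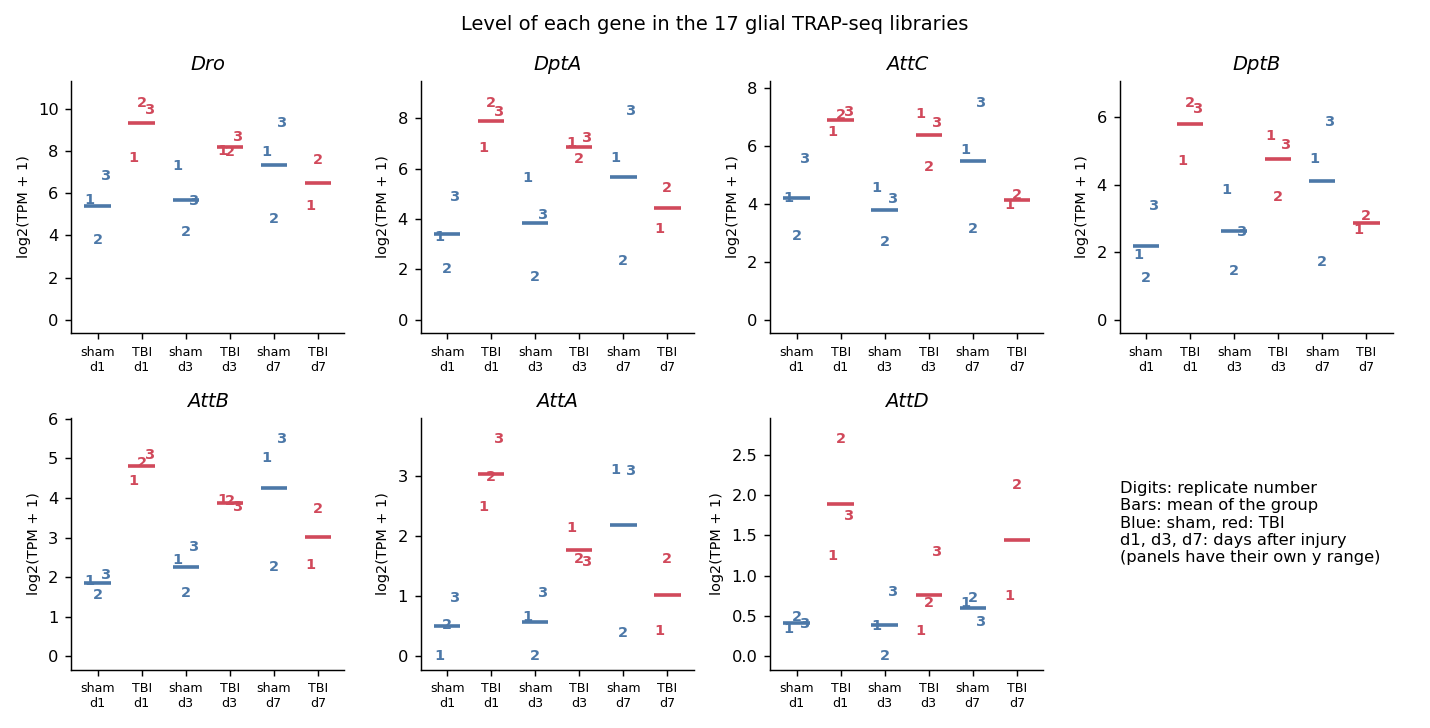
Level of each gene as log2(TPM + 1) in the 17 libraries, with the replicate number as the symbol and the group mean as a bar, sham in blue and TBI in red (each panel has its own y range). On day 1 no sham library of that day reaches the lowest TBI library in any panel, and on day 7 sham replicates 1 and 3 lie above replicate 2 in every panel but that of AttD.

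Several cell type markers differed between the same libraries on day 1. Of 13 midgut enzyme genes, 6 were called higher, with the sums given above. Of 10 glial markers, 2 were called lower, alrm (−0.84) and wrapper (−0.74). At an unadjusted p under 0.05, 7 of the 10 were lower, as 8.34% of all genes were. The sum of the 10 was 3207 to 4446 TPM in TBI and 4311 to 6274 TPM in sham. None of 6 tested fat body markers passed, and 4 were lower at an unadjusted p under 0.05. The fat body sum was 5425 to 12438 TPM in TBI and 13097 to 22006 TPM in sham. Fbp2 was at 0 in all libraries and Fbp1 at 0 in 16 of 17. The sum of 7 hemocyte markers was 96.7 to 121 TPM in TBI and 88.7 to 123 TPM in sham, with none called and NimC1 at 0 in 3 of the 17 libraries. That sum was mostly crq (75.1 to 106 TPM), and the fat body sum mostly Yp1 and Yp3. The sum of 8 photoreceptor markers was 25529 to 33579 TPM in TBI and 44479 to 46171 TPM in sham, with 5 of 8 lower at an unadjusted p under 0.05 and none called, and the sum of 6 neuronal markers was 573 to 758 TPM in TBI and 781 to 1032 TPM in sham, with none called. The part of these markers in the day 1 differences was not tested.

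On day 3, 6 of the 7 genes were higher in TBI with an unadjusted p under 0.05, against 3.21% of all 11835 genes, and none of the 7 passed after adjustment, when 0% of all genes were called. The TBI and sham libraries did not overlap in 5 of them, AttA, AttB, AttC, DptA and Dro, where 4.35% of all genes had all TBI above all sham libraries. AttC had the lowest p. AttC was at 22.7, 5.40 and 17 TPM in sham and at 138, 38.1 and 111 TPM in TBI. Replicate 2 was the lowest library of each group, and within each replicate number TBI was 6.07 to 7.05 times sham. The difference of 2.60 had an SE of 0.11 in the fit that takes the replicate number as a block (limma adjusted p = 0.157), and an SE of 0.66 without the block. With genes under a mean of 1 TPM left out, AttC passed with the block (limma adjusted p = 0.00912), when 3 of 8587 genes were called higher. It did not pass without the block (limma adjusted p = 0.992). The latter setting was chosen after seeing the data.

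AttB was at 4.39, 2.05 and 5.78 TPM in sham and at 14.4, 14.1 and 12.7 TPM in TBI on day 3, so that the TBI libraries nearly coincided, for a difference of 1.61 (SE 0.33, limma adjusted p = 0.815). AttA was at 0.58, 0 and 1.08 TPM in sham and at 3.41, 2.09 and 1.97 TPM in TBI, a difference of 1.21. For DptA the sham libraries were at 48.2, 2.28 and 17 TPM and the TBI libraries at 126, 82.9 and 149 TPM. These groups did not overlap, and the difference was 3.03 (SE 0.66, limma adjusted p = 0.815), with sham replicate 2 far below the others. DptB was at 13.2, 1.70 and 5.06 TPM in sham and at 42.1, 11.5 and 35.4 TPM in TBI. Sham replicate 1 exceeded TBI replicate 2, while within each replicate number TBI was 3.19 to 6.99 times sham. The difference of DptB was 2.13 (SE 0.26 with the block and 0.73 without it, limma adjusted p = 0.815 with the block). Dro was at 156, 16.7 and 48.8 TPM in sham and at 259, 245 and 408 TPM in TBI, without overlap (2.52, SE 0.64, limma adjusted p = 0.815). AttD, at 0.29, 0 and 0.73 TPM in sham and 0.24, 0.58 and 1.45 TPM in TBI, overlapped and differed by 0.37.

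Sham replicate 2 of day 3, the lowest library of its group for all 7 genes, was also the sham library with 648 TPM of midgut enzymes, and its part in these differences was not tested. Without it, and without the block, the differences ran from 0.17 (AttD) to 2.04 (AttC), with 1.97 for DptA, and none passed. This setting was chosen after seeing the data, and 0 of 11594 genes were called higher in it.

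On day 7 none of the 7 genes passed the test, when 0% of the 11966 genes tested were called, and the sham libraries spread more widely than the TBI libraries in 6 of them. Dro was at 246, 26.6 and 633 TPM in sham and at 41.6 and 193 TPM in TBI. DptA was at 84.4, 4.05 and 310 TPM in sham and at 11.1 and 37.0 TPM in TBI, and AttC at 57.3, 7.72 and 180 TPM in sham and at 14.7 and 18.9 TPM in TBI. In each of these genes sham replicates 1 and 3 exceeded both TBI libraries and sham replicate 2 lay below both. The same order held for AttB (31.2, 3.82 and 43.6 TPM in sham, 3.97 and 12.3 TPM in TBI) and for DptB (26.0, 2.26 and 56.8 TPM in sham, 5.31 and 7.41 TPM in TBI). AttA was at 7.59, 0.31 and 7.53 TPM in sham and at 0.34 and 2.09 TPM in TBI. The differences of these 6 genes were between −1.35 (AttC, SE 1.25) and −0.84 (Dro, SE 1.44), smaller than their SE or close to it. Adjusted p-values from limma were 0.717 to 0.821 for the 7 genes.

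AttD was the exception in direction, with 0.58, 0.65 and 0.34 TPM in sham and 0.68 and 3.37 TPM in TBI. It had both TBI libraries above all sham libraries, as 15.1% of all genes did that day, and TBI replicate 1 exceeded the highest sham library by little (0.84, SE 0.44, limma adjusted p = 0.717). None of the 7 was higher on day 7 with an unadjusted p under 0.05, against 3.79% of all genes. Genes with a mean of at least 1 TPM had a median change of 0.29 on this day, which upper-quartile scaling of the TPM brought to 0.01, so the 6 negative differences stand below that general shift. The differences of DptA and Dro on day 7 depended on which libraries entered: over the alternatives they ran from −2.93 to 0.04 for DptA and from −2.12 to 0.25 for Dro, without passing in any.

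**Figure D3:**
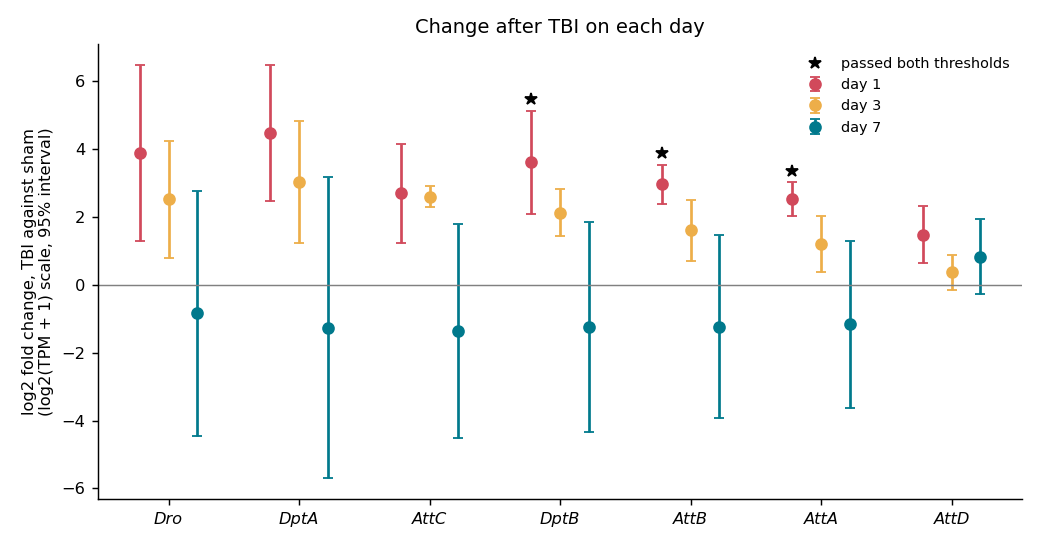
Difference between TBI and sham on each day as log2 change of TPM + 1, points with 95% confidence intervals from limma, and a star over the 3 differences that passed both thresholds (DptB, AttB and AttA on day 1). The day 7 intervals of 6 genes are wide and centered below 0, from −0.84 for Dro to −1.35 for AttC.

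Whether the difference between TBI and sham itself changed with time was tested as an interaction. Between day 1 and day 3 the difference was larger on day 1 by 0.10 (AttC) to 1.48 (DptB), with the lowest adjusted p at 0.252 (AttA, limma), and none of the 7 was called against 0.0161% of 12446 genes. AttC stood 2.70 above sham on day 1 and 2.60 above it on day 3, with a 95% interval of the change from −1.41 to 1.61. Between day 1 and day 7 the difference was larger on day 1 by 0.65 (AttD) to 5.74 (DptA), and 6 of the 7 genes had an unadjusted p under 0.05, which 1.29% of all genes had in that direction. All 7 had a limma adjusted p of 0.811, and 0.04% of 12493 genes were called. Without sham replicate 2 of day 7, AttB passed (5.19, limma adjusted p = 0.0608), when 2 of 12480 genes were called higher and 2 lower.

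Among the TBI libraries alone, day 7 minus day 1 was negative for all 7 genes. DptA differed by −3.46 (SE 0.64), DptB by −2.92 (SE 0.67), Dro by −2.80 (SE 0.88) and AttC by −2.77 (SE 0.52), and AttA and AttB by −2.0 and −1.79. These 6 had an unadjusted p under 0.05, as 2.26% of all genes had in that direction, and none passed after adjustment (lowest limma adjusted p = 0.274, with 0.128% of 12465 genes called). Without TBI replicate 2 of day 7, AttA (−2.60, adjusted p = 0.0866), AttB (−2.49, adjusted p = 0.0237) and DptA (−4.28, adjusted p = 0.0693, all limma) were called lower. That setting leaves 1 library on day 7, replicate 1 with its 748 TPM of midgut enzymes, which is assumed to vary like the other groups, and it called 306 genes higher and 77 lower in all, against 7 and 9 with all libraries. Without TBI replicate 2 of day 3, AttC was called lower (−2.77, limma adjusted p = 0.0694), when 4 of 12429 genes were called higher and 3 lower. From day 1 to day 3 the TBI levels differed by −0.51 (AttC) to −1.25 (AttA), with none called (0.104% of all genes).

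Among the sham libraries, day 3 minus day 1 was −0.42 (AttC) to 0.44 (DptB), with wide 95% intervals (for AttC, −2.96 to 2.13), and none of the 7 was called (0.0168% of all genes). Day 7 minus day 1 was positive for all 7 genes, from 0.20 (AttD) to 2.41 (AttB). AttB and AttA (1.70) had an unadjusted p under 0.05, as 1.09% of all genes had in that direction, and none passed (limma adjusted p = 1, with 0.0168% of 11939 genes called). Without sham replicate 2 of day 7, AttB rose by 3.40 (limma adjusted p = 0.0728), when 4 of 11891 genes were called higher and 2 lower.

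The 9 sham libraries differed from each other in these genes more than in most others. DptA ran from 2.28 to 310 TPM in sham flies, which is 136-fold, Dro from 12.6 to 633 TPM (50.4-fold) and AttC from 5.40 to 180 TPM (33.4-fold). The SD of log2(TPM + 1) over the sham libraries was 2.21 for DptA, 1.84 for Dro, 1.60 for DptB, 1.58 for AttC, 1.45 for AttB and 1.20 for AttA, against a median of 0.30 and a 95th percentile of 0.88 over 8766 genes with a mean of at least 1 TPM. DptA was at place 22 of these genes by SD, and 0.240% of them had a larger SD. AttD, at 0 to 0.73 TPM, had an SD of 0.24 and was at place 6398. Its mean reaches 1 TPM only through the TBI libraries. At such levels the added 1 TPM also keeps the SD small, so its place carries no weight. Sham replicates 1 and 3 of day 7 exceeded the lowest TBI library of day 1 in AttA, AttB, DptB and Dro, and replicate 3 did so in AttC and DptA as well, whereas no sham library did in AttD. These 2 sham libraries had 65.3 and 44.6 TPM of midgut enzymes, 132 and 84.8 TPM of hemocyte markers and 6678 and 17192 TPM of fat body markers. The hemocyte sum of replicate 3 was the lowest of the 17 libraries, and the other sums lay within the range of the remaining libraries.

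**Figure D4:**
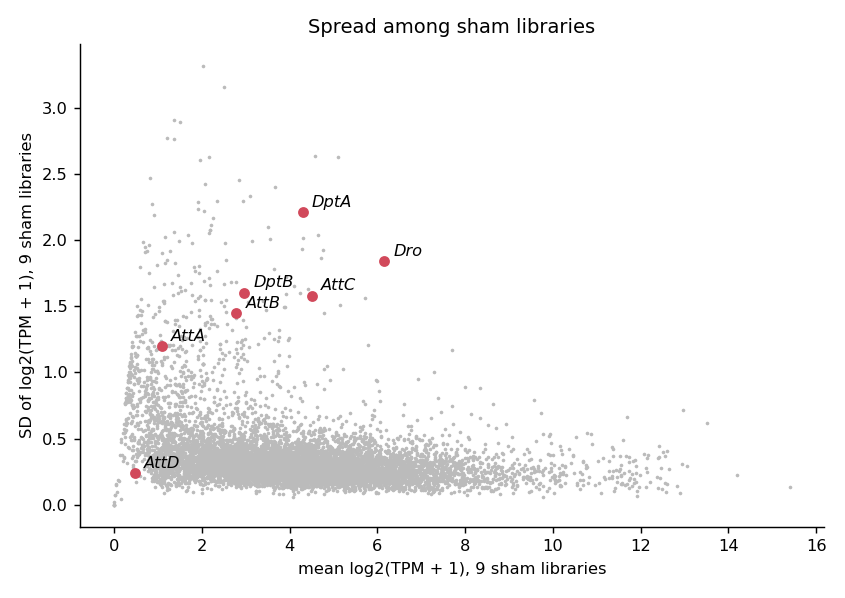
SD of log2(TPM + 1) over the 9 sham libraries against the mean over the same libraries, for 8766 genes (gray) and the 7 genes (red). Of the 7, DptA has the largest SD, 2.21, and AttD the smallest, 0.24, against a median of 0.30 over all genes. AttD lies at 0 to 0.73 TPM in sham, where the added 1 TPM keeps the SD small.

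Within a library, 6 of the genes moved together. Over the 17 libraries, which span groups and days, Pearson's r of log2(TPM + 1) was 0.857 to 0.983 for the 15 pairs without AttD and 0.389 to 0.591 for the 6 pairs with it. Their proportions were compared between TBI and sham through 4 ratios in an exact permutation test (two-sided, labels permuted within days, 4000 arrangements, smallest possible p = 0.00025). DptA:DptB was 3.13, 2.24 and 3.05 in sham and 4.46, 4.58 and 3.98 in TBI on day 1, without overlap. Over the 3 days, the log2 ratio was higher in TBI by 0.59 (exact permutation p = 0.0995, adjusted p = 0.199 over 4 ratios). Dro:DptA differed by −0.23 (adjusted exact p = 0.522) and AttC:AttB by 0.20 (adjusted exact p = 0.589). AttA:AttB differed by −0.26 with the added 1 TPM (adjusted exact p = 0.199) and by 0.45 with 0.1 TPM added, and its plain ratio had a median of 0.173 in sham and 0.197 in TBI, so that no direction can be given for it. On days 1 and 3 alone, DptA:DptB differed by 0.89 and Dro:DptA by −0.55, each with an adjusted exact permutation p of 0.04. Without sham replicate 3 of day 7, DptA:DptB differed by 0.73 (adjusted exact permutation p = 0.0767). Both settings used the added 1 TPM, which draws a ratio toward 1 where levels are low, and neither was run with 0.1 TPM. Over the 3 days, 0 of the 4 ratios passed with 0.1 TPM added.

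Of the genes around the 7, none that was tested was called on any day. CG14325 was at 0 in all libraries and was not tested, and CG14323 and CG43691 reached only 0.29 and 0.07 TPM. CG4744, which overlaps AttC, was at 0 to 1.36 TPM. It differed by 0.79 on day 1 (limma adjusted p = 0.151) and by 0.57 on day 3 (limma adjusted p = 0.815). CG43109, which overlaps DptB, was at 0 to 12.7 TPM. It differed by 0.76 on day 1 (limma adjusted p = 0.543) and by 1.69 on day 3 (limma adjusted p = 0.815). Rpn6, a proteasome subunit gene on the other strand whose annotated end adjoins that of AttB, was at 62.1 to 114 TPM, and jef, next to Dro, at 16.2 to 41.8 TPM.

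The other peptide genes of the same response were set beside them. Of 7 (CecA1, CecA2, CecB, CecC, Def, Mtk and Drs), 6 were called higher on day 1, with a median change of 2.90 over the list, against 2.96 over the attacins, diptericins and drosocin and 0.02 over all genes tested. Drosomycin (Drs), the antifungal peptide used as a readout of the Toll pathway, rose by 4.76 (SE 0.14, limma adjusted p = 0.0118), the cecropin CecA2 by 3.20, CecC by 2.90, metchnikowin (Mtk) by 2.67, CecA1 by 2.46 and defensin (Def) by 2.15. CecB (3.27, limma adjusted p = 0.163) did not pass. On day 3 none of the 7 other peptide genes was called and their median was 0.93, against 2.13 for the attacins, diptericins and drosocin and 0.03 for all genes, a difference between the lists that was not tested. On day 7 the medians were −0.32 and −1.23.

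The genes that carry the signal to the peptide genes gave no call. None of 4 receptor genes (PGRP-LC, PGRP-LE, PGRP-LA and PGRP-SD) and none of 13 signaling genes from imd to Rel passed on any day, with day 1 medians of 0.04 and 0.00 and changes between −0.38 and 0.46. Rel was at 67.6, 57.6 and 49.1 TPM in sham and at 81.7, 65.8 and 41.2 TPM in TBI on day 1. Of 11 inhibitors of the pathway, PGRP-SC2, a peptidoglycan-degrading amidase, was called. It was at 0.53, 0.39 and 0.94 TPM in sham and at 14.0, 23.2 and 17.1 TPM in TBI on day 1 and rose by 3.54 (SE 0.26, limma adjusted p = 0.0289). It is known as a gut amidase, and the midgut enzymes were high in the same 3 libraries. Outside day 1 TBI it was highest in TBI replicate 1 of day 7 (7.97 TPM), sham replicate 2 of day 3 (6.60 TPM) and sham replicate 3 of day 7 (6.1 TPM), and of these 3 the sham library of day 7 had 44.6 TPM of midgut enzymes, as low as other sham libraries. The part of the midgut in this change was not tested. The inhibitor pirk was at 17.9 to 20.9 TPM in sham and 13.5 to 18.8 TPM in TBI (−0.32, limma adjusted p = 0.287).

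Outside the family, the genes whose levels followed the mean of the 7 most closely over the 17 libraries were mostly immune genes too. Among 8759 other genes with a mean of at least 1 TPM, the 10 with the highest Pearson's r were Mtk (0.905), edin (0.896), CecA2 (0.884), the metchnikowin-like gene Mtkl (0.882), the peptidoglycan recognition gene PGRP-SB1 (0.865), CecA1 (0.833), the bomanin BomBc1 (0.797), the tetraspanin Tsp42El (0.792), GNBP-like3 (0.777) and CecC (0.767). Mtk, the closest, was at 101, 108 and 371 TPM in sham and 339, 1440 and 2167 TPM in TBI on day 1, and at 205, 124 and 1281 TPM in sham and 80.7 and 311 TPM in TBI on day 7. It shared with 6 of the 7 genes, all but AttD, the high value in sham replicate 3 of day 7. These libraries share groups and days, so the correlations describe the libraries and carry no test.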

How the data were processed

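The authors quantified single-end reads with Kallisto against FlyBase transcripts, added up the transcripts of each gene and deposited TPM, so neither counts nor depth were at hand and no counting error is given. The authors' own tests used estimated counts. A TBI library of day 7 that the study had removed was not analysed here. Symbols were found for 13127 identifiers (97.4%) in the reference table and for 134 more in the study's tables. TBI and sham were compared with limma 3.58.1 (R 4.3.3) on log2(TPM + 1), 1 fit per day over the genes detected in any library of that day. On days 1 and 3 the replicate number was a block, since the study corrected for replicates, and on day 7 it was not. A gene was called when its log2 change was 0.6 or more in size and its p, adjusted by Benjamini-Hochberg over all genes tested, was no higher than 0.1. Days were compared by interaction terms and by separate fits of the sham and the TBI libraries. Ratios between genes, log2((a + 1)/(b + 1)), were compared by an exact permutation test. The fits were tested on simulated data, with changes planted only in well-expressed genes, large SDs capped and no replicate effect. That test does not cover genes at the levels of AttA and AttD or with the sham spread of DptA. Alternatives were the block, median-of-ratios and upper-quartile scaling, pseudocounts of 0.1 and 0.5, a minimum mean of 1 TPM, a joint fit of 17 libraries, each replicate left out, AttA and AttB summed, and stricter thresholds. The text names all 7 genes, called genes of fixed lists, neighboring genes and the 10 genes of highest correlation. The genes and lists were chosen with earlier results of these data known.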

Additional observations from a re-analysis of the deposited data

How the results depend on the processing

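On day 1, 3 of the 7 genes were called higher. The count was 7 with a minimum mean of 1 TPM (6 without the replicate block, a setting chosen after seeing the data), 0 to 2 when 1 replicate number was left out, 4 with either other pseudocount (DptA joining) or in the joint fit (AttD joining, adjusted p = 0.0915), and 2 under either scaling, at the stricter thresholds or with AttA and AttB summed, with all genes called higher at 265, 466 with the minimum and 10 without replicate 2. AttA and AttB stayed higher except without replicate 2 or 3 (adjusted p = 0.110 to 0.243), and DptB also missed the threshold under both scalings (0.103 and 0.10001), without replicate 1 (0.154) and at the stricter thresholds. AttA and AttD reached the minimum mean on day 1 through their TBI libraries alone. On day 3 the count was 0, and 1 (AttC) with the minimum mean, when 3 of 8587 genes were called higher. The count was 0 with that minimum and no block, again a setting chosen after seeing the data. On day 7 it was 0 throughout. Leaving out single libraries gave 0 to 1 calls for the day 1 against day 7 difference and for sham day 7 against day 1 (1 without sham replicate 2 of day 7), 0 to 3 for TBI day 7 against day 1, and 0 to 2 ratios, with 3 ratios on days 1 and 3 alone, AttA:AttB among them, whose sign turned with the pseudocount. No alternative turned the sign of a difference between TBI and sham that had passed.

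Same-numbered sham and TBI libraries correlated in their deviations from the group means at 0.376, 0.00423 and 0.216 on day 1, 0.451, 0.143 and −0.0291 on day 3, and 0.224 and 0.124 on day 7 (8766 genes, which are not independent), so the values do not show that the numbers pair the libraries, and sham replicate 2 of day 1 correlated best with TBI replicate 3 (0.141). On day 7, with 2 TBI libraries, the TBI deviations mirror each other, so each value is fixed as the negative of its mismatched pair. The block stands on days 1 and 3 because the study's methods correct for replicates. Without the replicate block 4 genes were called on day 1, DptA joining (limma adjusted p = 0.0513), where 290 of all 12085 genes were called higher. On day 3, 0 were called, where 1 of 11835 genes was called higher. For the day 1 against day 3 difference 0 were called, where 57 of 12446 genes were called higher and 3 lower. With the replicate block added, 0 were called on day 7, where the differences of DptA and Dro came to 0.04 and 0.14, and 0 for day 1 against day 7. In these fits 0 of all 11966 and 0 of all 12493 genes were called.

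Depth cannot be read from TPM, so limits of detection for AttA and AttD are unknown.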
